A study of Mus musculus with 4 samples.

Results

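The collagen chain genes are the 44 of 27998 genes in the deposited count tables whose symbol reads Col, a type number, the letter a and a chain number, with nothing after it. They were taken by name and not by any measured value, and they encode the α chains from which the collagens are built. Lungs of wild type C57BL/6 mice, male by their labels, were dissociated with collagenase D and DNase1, cleared of dead cells and profiled by 10x single-cell RNA sequencing at newborn age (NB, 10 days), 2 months (2 M), 10 months (10 M) and 18 months (18 M). Each age is 1 library, and neither the labels nor the methods say how many mice went into it. The question the design puts to these genes is how their transcripts differ between ages in pulmonary fibroblasts (pFBs) and in the other cells of the lung.

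Collagen α chains wind around each other into a helix, and the make-up of that helix sets the kind of structure a collagen forms. Fibrillar collagens (types I, II, III, V, XI, XXIV and XXVII) make the fibrils that give tissue its tensile strength, network collagens (types IV, VIII and X) make sheets such as the basement membrane, and the beaded type VI forms microfilaments around cells. FACIT collagens sit on the surface of fibrils, and transmembrane collagens span the membrane of the cell that makes them. In the lung, types I and III fill the interstitium and the vessel walls, and type IV underlies the alveolar epithelium and the capillaries.

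By class, 11 chains were fibrillar, 9 network, 6 beaded, 9 FACIT and 4 transmembrane, and 5 were put under other (Col7a1 of anchoring fibrils, the basement membrane zone chains Col15a1 and Col18a1, Col26a1 and Col28a1). In fibroblasts, 34 chains had at least 20 unique molecular identifiers (UMIs, each standing for 1 captured transcript) over the 4 libraries, and Col8a2 reached that number in epithelial cells. The other 9 chains stayed below it in each structural cell type. Of these, Col20a1 had 75 UMIs over all cells, 56 of them in immune cells, and Col10a1 had 112, of which 100 lay in 1 barcode described further on. Col17a1 had 27, Col25a1 17, Col26a1 12, Col19a1 9, Col24a1 7, Col22a1 7 and Col6a4 1. No chain overlapped another gene of the table on the same strand, and 10 overlapped a gene on the other strand.

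The 250 bases upstream of the transcription start are shown for 2 fibrillar chains that were high in the library labelled 18 M and for the 2 transmembrane chains that were low in it. They come from RefSeq on GRCm38.p6, are written 5′ to 3′ on the strand of the gene, and hold no annotated exon base. Capitals mark the letters CCAAT, the TATA motif TATAAA and the GC motif GGGCGG, each searched on both strands and none overlapping another.
Col3a1, chr1:45311288-45311537, plus strand: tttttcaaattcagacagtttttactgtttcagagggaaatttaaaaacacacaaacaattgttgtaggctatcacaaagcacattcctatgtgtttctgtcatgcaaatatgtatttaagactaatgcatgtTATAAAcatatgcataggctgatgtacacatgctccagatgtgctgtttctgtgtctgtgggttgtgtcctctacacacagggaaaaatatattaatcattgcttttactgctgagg
Col5a1, chr2:27886175-27886424, plus strand: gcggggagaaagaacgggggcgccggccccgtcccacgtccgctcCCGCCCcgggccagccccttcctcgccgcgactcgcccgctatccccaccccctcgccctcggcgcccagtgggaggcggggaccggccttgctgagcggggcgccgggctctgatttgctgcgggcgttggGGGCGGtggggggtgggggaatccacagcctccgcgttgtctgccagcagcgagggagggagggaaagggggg
Col13a1, chr10:61979109-61979358, minus strand: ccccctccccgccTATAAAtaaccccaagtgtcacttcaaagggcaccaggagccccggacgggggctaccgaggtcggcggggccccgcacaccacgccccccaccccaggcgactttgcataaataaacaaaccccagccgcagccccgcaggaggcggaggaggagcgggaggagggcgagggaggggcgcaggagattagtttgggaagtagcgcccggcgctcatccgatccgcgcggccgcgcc
Col23a1, chr11:51289670-51289919, plus strand: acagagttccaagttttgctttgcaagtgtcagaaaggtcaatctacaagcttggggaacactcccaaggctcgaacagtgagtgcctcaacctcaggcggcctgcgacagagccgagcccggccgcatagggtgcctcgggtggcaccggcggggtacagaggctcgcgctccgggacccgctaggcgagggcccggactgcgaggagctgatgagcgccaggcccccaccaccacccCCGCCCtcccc

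TATAAA stands in the windows of Col3a1 and Col13a1, and GGGCGG in those of Col5a1 and Col23a1, so in these 4 windows each of these motifs stands once beside a high and once beside a low chain. RefSeq windows were found for 35 of the 44 chains, 38 windows in all. Of these, 13.2% held the TATA motif, 34.2% the CCAAT motif and 57.9% the GC motif, against 12.4%, 33.8% and 32.7% of all 32851 windows of that length. A match describes these letters only.

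After the limits on genes, UMIs and mitochondrial share, 28153 cells remained, from 5537 in 2 M to 8377 in the library labelled 18 M, with median depths of 3998.5 to 4308 UMIs. Cells were assigned by markers of single cells, none of them a collagen chain. In order of age (NB, 2 M, 10 M, 18 M) this gave 146, 98, 355 and 147 fibroblasts, 33, 9, 31 and 47 pericytes or smooth muscle cells, 54, 34, 58 and 31 endothelial cells, and 43, 42, 104 and 526 epithelial cells. All 11 fibroblast markers had UMIs in the fibroblasts of every library, with a summed level of 9984 to 14519 CPM (UMIs per 1000000 of the cell type's UMIs in that library). In those same cells the 12 pericyte and smooth muscle markers summed to 120.8, 89.5, 75.4 and 149.7 CPM in order of age (8 to 10 of them detected) and the 16 epithelial markers to 32.4, 23.6, 21.2 and 59.7 CPM (8 to 14 detected). The 5 mesothelial markers summed to 29.5, 9.43, 11.8 and 23.0 CPM, with 1 detected in each of the first 3 libraries and 2 in the last. Msln and Upk3b were at 0 in all 4, and Wt1 had 27 UMIs in 9 of the 147 fibroblasts labelled 18 M and 0 in the others. The part of these markers in the chain levels was not tested. Xist, transcribed from the inactive X chromosome of females, reached 577.7 CPM over the library labelled 18 M and at most 0.526 CPM in the others, which goes against the label of male mice, so that library is named by its label throughout. Across libraries, 131 barcode sequences occurred in 2 libraries each.

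Most chain transcripts came from fibroblasts, although these were 1.75 to 4.52% of the cells. Of the chain UMIs of all cells, 57.0%, 85.6%, 79.2% and 75.7% lay in fibroblasts, in order of age. Pericytes or smooth muscle cells held 19.3% in NB and 2.72 to 5.02% in the other libraries. Immune cells were 82.9 to 95.3% of the cells and held 2.17 to 6.73% of the chain UMIs. Within a cell type the classes took up different shares. Fibrillar chains made up 55.2%, 76.1%, 66.5% and 89.8% of the chain UMIs of fibroblasts, in order of age. In endothelial cells 77.0 to 87.5% belonged to network chains, and in epithelial cells 53.7 to 68.6%. Pericytes or smooth muscle cells were between these, with 39.9 to 52.1% fibrillar and 18.2 to 27.0% network. In whole-cell sums of this kind, fewer cells of a subtype and less RNA per cell cannot be told apart.

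**Figure D1:**
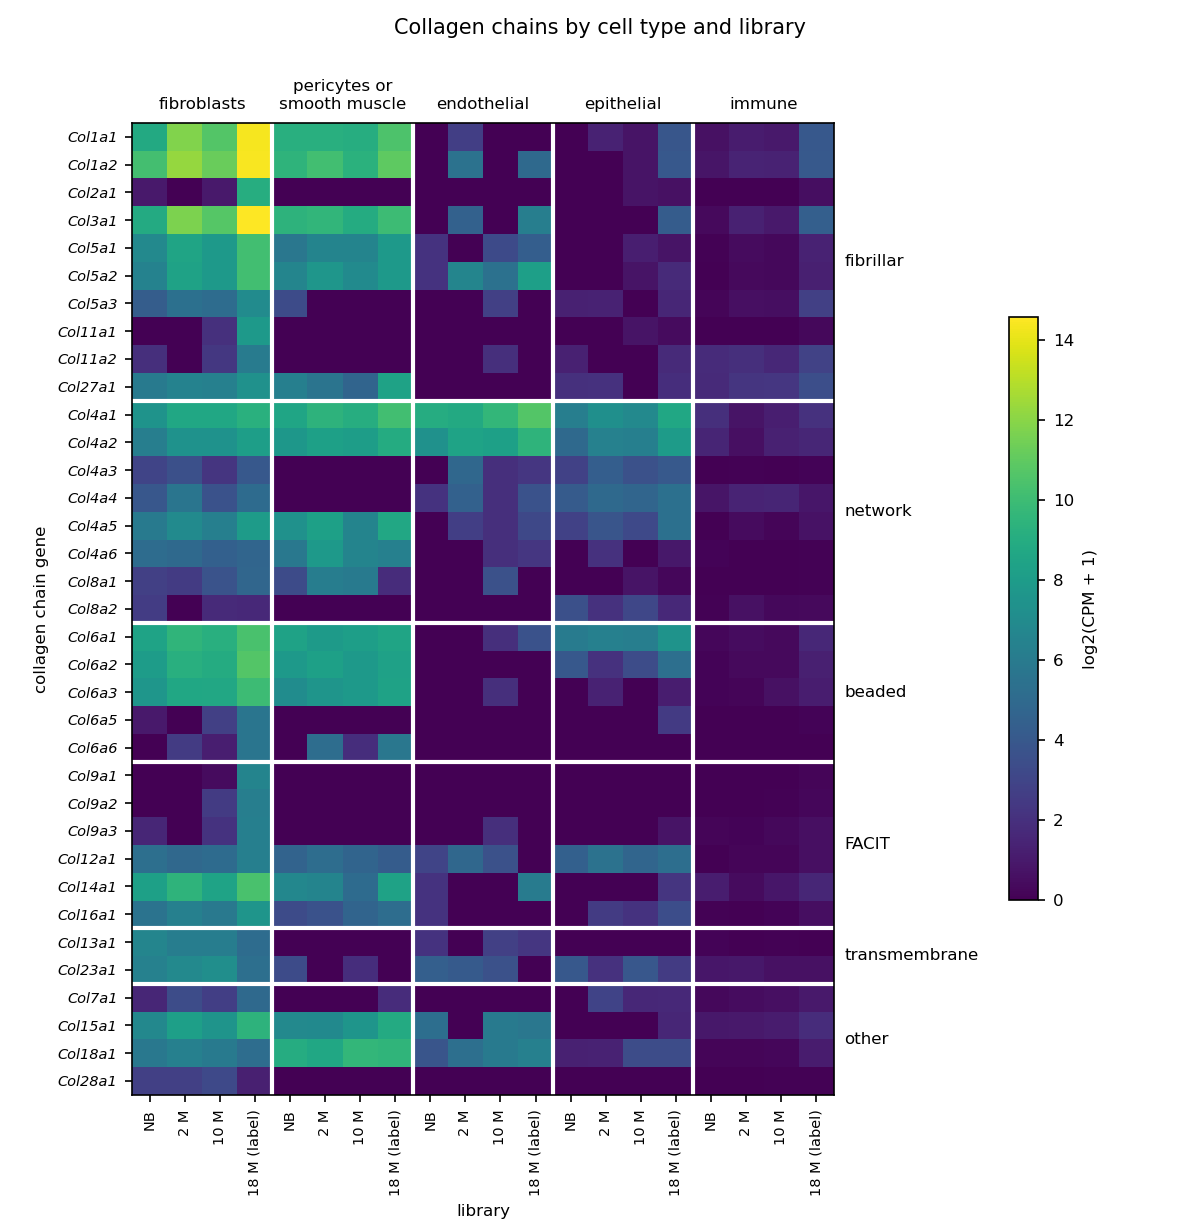
Level of each collagen chain with at least 20 UMIs in a structural cell type, as log2(CPM + 1), by cell type and library. Columns are the 4 libraries within each of 5 cell types, rows are chains grouped by class, and "18 M (label)" is the library labelled 18 M. The fibrillar chains are brightest in fibroblasts, where Col3a1 reached 24120 CPM in the library labelled 18 M, and Col4a1 is the brightest row of endothelial and epithelial cells.

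**Figure D2:**
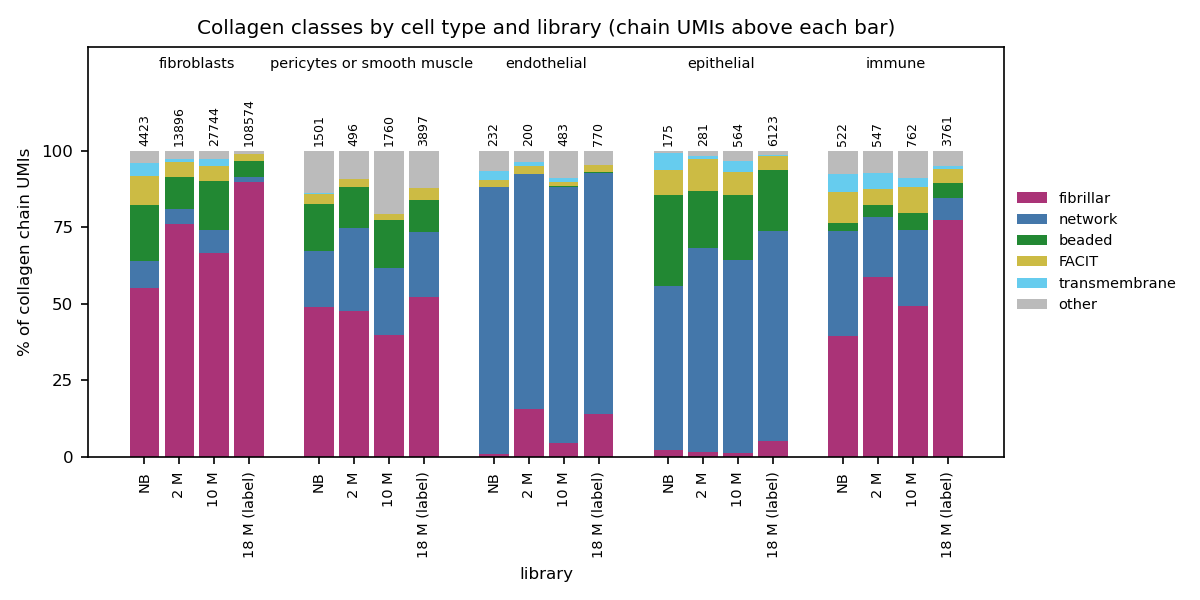
Share of each collagen class in the chain UMIs of a cell type and library, as stacked bars that sum to 100%. The number over each bar is its chain UMIs. Fibrillar chains take 89.8% of the bar of 18 M fibroblasts, and network chains at least 53.7% of every endothelial and epithelial bar.

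Each library was set against 2 M, and the 3 comparisons share that library. With 1 library per age there was no test between ages and no replicate check. A chain is called higher or lower where its CPM ratio was at least 2 or at most 0.5. Intervals are exact at 95% and hold counting error alone, leaving out differences among mice and the clumping of UMIs by cell. Where a library had 0 UMIs the ratio is a bound against a floor of 3 UMIs.

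In pFBs of the library labelled 18 M, collagen chains were mostly higher than in 2 M pFBs. Of 34 chains, 21 were at least 2-fold higher, where 9.23% of all 10543 genes tested were, and 4 were at least 2-fold lower, where 9.40% of all genes were. The median log2 ratio over the chains was 1.42, beside -0.07 over all genes. By class, 9 of 10 fibrillar, 4 of 5 beaded, 5 of 6 FACIT and 1 of 7 network chains were higher, and 2 of 2 transmembrane chains were lower. Of the 21, 8 had the 20 UMIs only through the library labelled 18 M. These were the fibrillar Col2a1, Col11a1 and Col11a2, the FACIT Col9a1, Col9a2 and Col9a3, and the beaded Col6a5 and Col6a6. Their calls, which the class counts include, were largely fixed by that minimum. Over chains with at least 20 UMIs in the other 3 libraries, a minimum chosen after the data were seen, 13 of 26 were higher (7.41% of 9959 genes) and 4 lower (9.61%), with a median of 1.08 beside -0.09. In NB pFBs none of the 34 was at least 2-fold higher (8.92% of all genes were) and 15 were at least 2-fold lower (6.40% of all genes), with a median of -0.88 beside -0.01. In 10 M pFBs 1 was higher (6.33% of all genes) and 5 lower (4.18%), with a median of -0.24 beside -0.02.

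**Figure D3:**
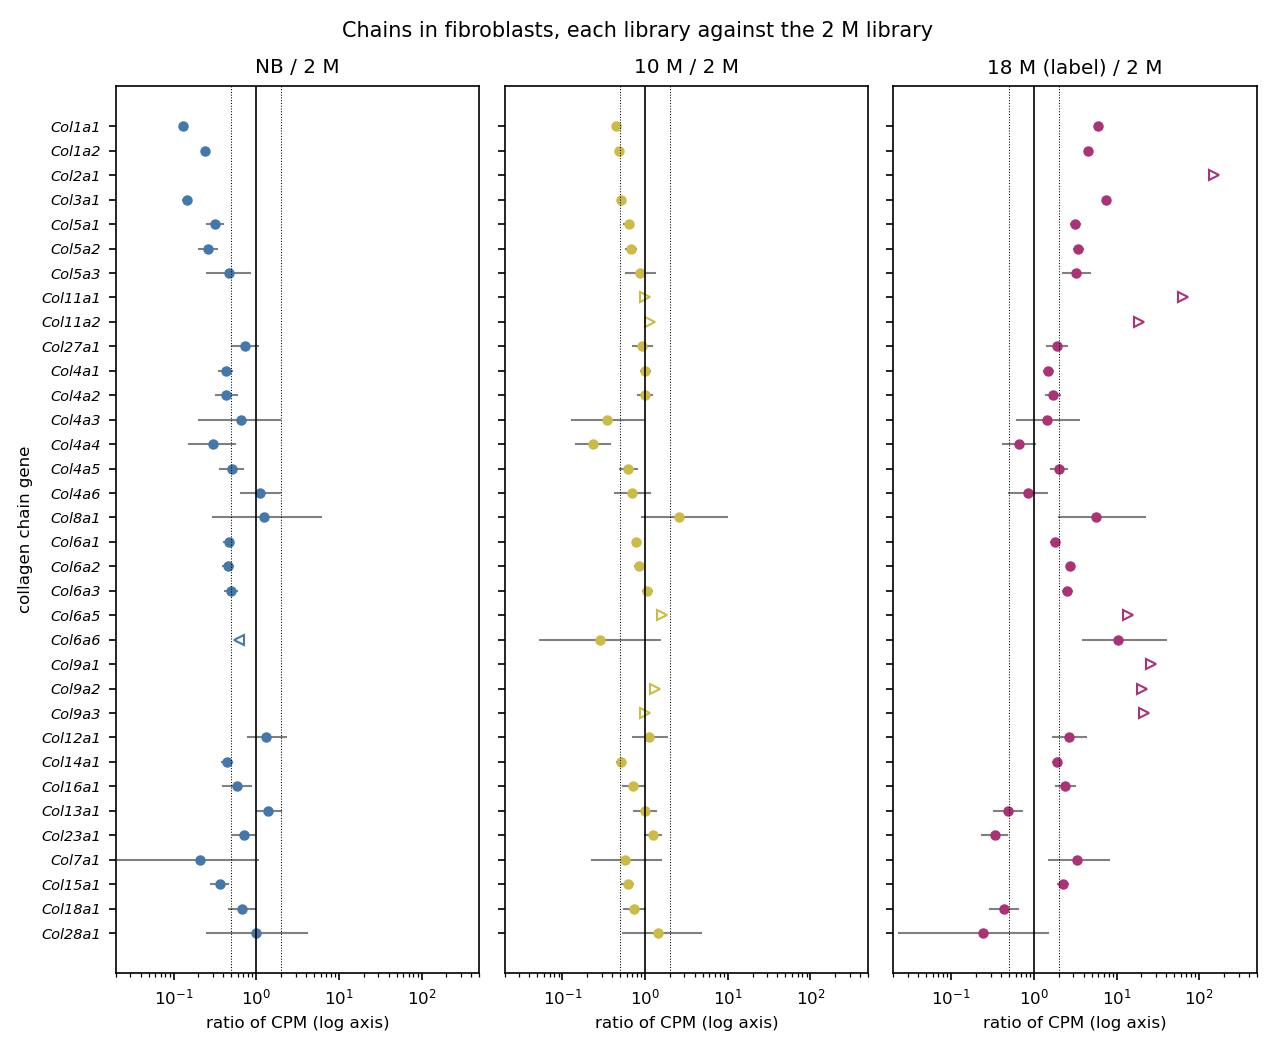
Ratio of CPM in fibroblasts of NB, 10 M and the library labelled 18 M to 2 M for 34 chains, on a log axis, with exact 95% intervals for counting error. Open triangles are bounds against a floor of 3 UMIs, a missing point had too few UMIs in both libraries, and dotted lines mark 2-fold. In the 18 M panel 21 chains lie beyond 2-fold to the right, 8 of which had enough UMIs only through that library, and 4 to the left, and in the NB panel 15 lie to the left.

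Type I collagen, the main fibril of the lung interstitium, is a trimer of 2 chains of Col1a1 (ENSMUSG00000001506, GRCm38 chromosome 11, 94936224 to 94953042) and 1 of Col1a2 (ENSMUSG00000029661, chromosome 6, 4504814 to 4541544). Col1a1 was at 465.6, 3531, 1592 and 21021 CPM in pFBs, in order of age as everywhere that follows, and Col1a2 at 1165, 4833, 2360 and 21633 CPM. Both were lowest in NB and highest in the library labelled 18 M. Their ratios of 18 M to 2 M were 5.95 (5.73 to 6.18) and 4.48 (4.33 to 4.63), those of NB to 2 M 0.132 (0.119 to 0.145) and 0.241 (0.226 to 0.257), and those of 10 M to 2 M 0.451 and 0.488. The UMIs were spread over the cells, with Col1a1 in 144 of 147 pFBs labelled 18 M and 19.1% of its UMIs in the top 5 cells.

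Col3a1 (ENSMUSG00000026043, chromosome 1, 45311538 to 45349706) forms type III collagen, which mixes with type I in the walls of vessels and airways. It was at 477.4, 3271, 1678 and 24120 CPM, a ratio of 7.38 (7.09 to 7.67) for 18 M and of 0.146 (0.132 to 0.161) for NB. The type V chains, which start and thin the fibrils, showed the same order of libraries at a lower level. Col5a1 (ENSMUSG00000026837) was at 115.9, 366.4, 231.5 and 1157 CPM and Col5a2 (ENSMUSG00000026042) at 88.4, 334.6, 224.4 and 1149 CPM, with 18 M ratios of 3.16 (2.80 to 3.58) and 3.43 (3.02 to 3.91). Col5a3, the remaining type V chain, was at 18.7, 40.1, 35.0 and 129.6 CPM. Col27a1, a fibrillar chain, was at 62.9, 86.0, 79.4 and 162.7 CPM and was not called, with an 18 M ratio of 1.89 (1.45 to 2.5). Summed over the class, fibrillar chains were at 2398, 12461, 6208 and 70203 CPM, an order of NB, 10 M, 2 M and 18 M whose neighbours differ beyond counting error.

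The fibrillar chains Col2a1, Col11a1 and Col11a2 and the FACIT chains Col9a1, Col9a2 and Col9a3 are known from cartilage, where types II, IX and XI build the fibrils. They were at least 2-fold higher in 18 M pFBs, and most of their UMIs came from 2 barcodes. Of 750 Col2a1 UMIs, 474 and 275 were in these barcodes, as were 129 of 129 Col9a1 UMIs and 294 of 310 Col11a1 UMIs. Both carried 0 Col1a1 UMIs, with 5 and 4 of the fibroblast markers detected. Without them Col11a1, at 11.7 CPM, was the 1 of these 6 chains still called. In all, 17 of 30 chains were then at least 2-fold higher (9.07% of all genes tested), Col4a5 now among them, with a median log2 ratio of 1.26. This alternative was chosen after the data were seen. Of the 17 chains, Col11a1, Col6a5 and Col6a6 still reached the UMI minimum only through the library labelled 18 M, so their call was largely fixed by that minimum. Col10a1, the type X chain, also known from cartilage, had 100 UMIs in 1 further barcode of the same library, with 2158 UMIs in all and 37 of Col2a1, which the marker rule left unassigned.

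Network chains differed less between the libraries than fibrillar chains did in pFBs. Col4a1 (ENSMUSG00000031502, chromosome 8, 11198423 to 11312826) and Col4a2 (ENSMUSG00000031503, chromosome 8, 11312805 to 11449287) encode the chains of the common basement membrane trimer. Col4a1 was at 174.8, 406.5, 409.8 and 608.2 CPM and Col4a2 at 72.7, 167.3, 167.9 and 285.7 CPM. Both were lower in NB, at 0.430 (0.357 to 0.517) and 0.434 (0.324 to 0.579) times 2 M, and neither reached 2-fold in 18 M, with 1.5 (1.32 to 1.70) and 1.71 (1.41 to 2.08). The interval of their 10 M ratios, 0.894 to 1.14 and 0.831 to 1.22, included 1. Col4a5, of the smooth muscle and kidney type IV networks, was at 62.9, 124.9, 78.1 and 249.8 CPM, just under the 2-fold call in 18 M, while its partner on the X chromosome Col4a6 was at 34.4, 30.6, 21.2 and 25.9 CPM. Col4a4 was at 14.7, 49.5, 11.8 and 32.4 CPM and Col4a3 at 6.88, 10.6, 3.70 and 15.1 CPM, so both were below 0.5 of 2 M in 10 M. Col8a1, of the vascular type VIII network, was called higher in 18 M at 26.6 against 4.71 CPM, but 29 of its 37 UMIs were in 1 cell. It was also the 1 chain called higher in 10 M, at 12.1 CPM with an interval of the ratio from 0.921 to 9.94.

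The beaded type VI chains Col6a1, Col6a2 and Col6a3, which link cells to interstitial fibrils, had smaller 18 M ratios than types I and III. Col6a1 was at 341.8, 736.3, 569.9 and 1317 CPM, Col6a2 at 267.2, 585.5, 488.2 and 1622 CPM, and Col6a3 at 198.4, 399.4, 425.2 and 1018 CPM. The 18 M ratios were 1.79 (1.63 to 1.96), 2.77 (2.51 to 3.06) and 2.55 (2.26 to 2.88), and in NB all 3 were at 0.456 to 0.497 times 2 M. The later type VI chains were sparse. Col6a5 had 1, 0, 17 and 68 UMIs, the last at least 13.8-fold over 2 M, with 34 of the 68 in 1 cell. Col6a6 had 0, 4, 4 and 68 UMIs, with 13 in the leading cell and an 18 M ratio of 10.4 (3.88 to 39.2).

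Of the FACIT chains, Col14a1 and Col16a1 followed the fibrillar order in part. Col14a1, which coats fibrils of types I and III and marks adventitial fibroblasts, was at 312.4, 698.6, 353.3 and 1314 CPM, with an 18 M ratio of 1.88 (1.71 to 2.07). Col16a1 was at 46.2, 78.9, 57.2 and 189.3 CPM, a ratio of 2.40 (1.83 to 3.18). Col12a1, a fibril-bound chain of dense tissue, was at 39.3, 29.5, 33.3 and 77.7 CPM and was called in 18 M alone, with a ratio of 2.64 (1.70 to 4.26).

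The transmembrane chains went the other way. Col13a1 (ENSMUSG00000058806, chromosome 10, 61838236 to 61979108), a chain of cell adhesion sites, was at 99.2, 70.7, 70.0 and 34.6 CPM, and Col23a1 (ENSMUSG00000063564, chromosome 11, 51289920 to 51583918) at 82.5, 115.5, 143.7 and 38.9 CPM. Against 2 M the 18 M levels were 0.489 (0.327 to 0.726) and 0.337 (0.237 to 0.474). Neither was called in NB or in 10 M. Among the chains of no class, Col15a1, a proteoglycan near basement membranes, was at 108.0, 299.2, 183.7 and 667.9 CPM, an 18 M ratio of 2.23 (1.94 to 2.57). Col18a1 (ENSMUSG00000001435), whose end is released as endostatin, was lower at 55.0, 81.3, 59.9 and 35.3 CPM, an 18 M ratio of 0.434 (0.295 to 0.635). Col28a1 was called lower on 2 against 5 UMIs, a ratio of 0.244 whose interval (0.0233 to 1.49) includes 1. Col7a1, of anchoring fibrils, was at 1.97, 9.43, 5.38 and 30.95 CPM, with 43 UMIs in 15 of 147 pFBs labelled 18 M.

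Within the library labelled 18 M, 47 pFBs had an Xist and no Y-linked UMI, 54 a Y-linked and no Xist UMI, 8 both and 38 neither. The other libraries had at most 1 pFB with Xist alone. Fibrillar chains summed to 78011 CPM in the Xist group and to 68502 CPM in the Y-linked group, both above the 12461 CPM of 2 M. Against 2 M, 11 of 27 chains were at least 2-fold higher in the Xist group (8.69% of all genes tested, median log2 ratio 0.89) and 23 of 34 in the Y-linked group (8.28%, median 1.44). The Y-linked group held both barcodes with the cartilage chains, and without them 17 of 29 chains were higher (7.70%, median 1.15). The counts of both groups include chains that reached the UMI minimum only through the library labelled 18 M, whose call was largely fixed by it. These were Col6a6 in the Xist group, and Col6a5, Col6a6 and Col11a2 in the Y-linked group without the barcodes. With the barcodes, the cartilage chains of the Y-linked group were among them too. The transmembrane chains were below 2 M in both groups, Col13a1 at 30.8 and 22.4 CPM and Col23a1 at 36.2 and 43.4 CPM. Of the Col2a1 UMIs, 1 lay in the Xist group. The 38 pFBs with neither signal, at a median of 1023 UMIs, differed from both. Their fibrillar chains summed to 38023 CPM, and their Col13a1, on 12 UMIs, was at 126.8 CPM (65.5 to 221.5), above the 70.7 CPM of 2 M. Xist without a Y-linked UMI was also found in 248 of 526 epithelial and 13 of 31 endothelial cells of that library. It was found in 18 of its 47 pericytes or smooth muscle cells. The other libraries had at most 1 such cell in each of these types. The chains of these types were not split by these signals.

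Single fibroblasts showed the same order of libraries. Chain UMIs made up a median of 0.316%, 1.20%, 0.703% and 5.31% of a cell's UMIs, with full ranges of 0 to 2.29%, 0.0613 to 5.88%, 0 to 5.21% and 0.0861 to 20.3%. The lower quartile of the 18 M pFBs, 2.84%, lay above the upper quartiles of the other libraries, 0.491%, 1.72% and 1.15%, while the full ranges overlapped. The median pFB had UMIs of 8, 12, 12 and 15 different chains, at median depths of 6019, 7511.5, 7881 and 9610 UMIs. The 15, 10, 36 and 15 cells with the most chain UMIs, 10% of each library's pFBs, held 37.1 to 42.1% of its chain UMIs.

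**Figure D4:**
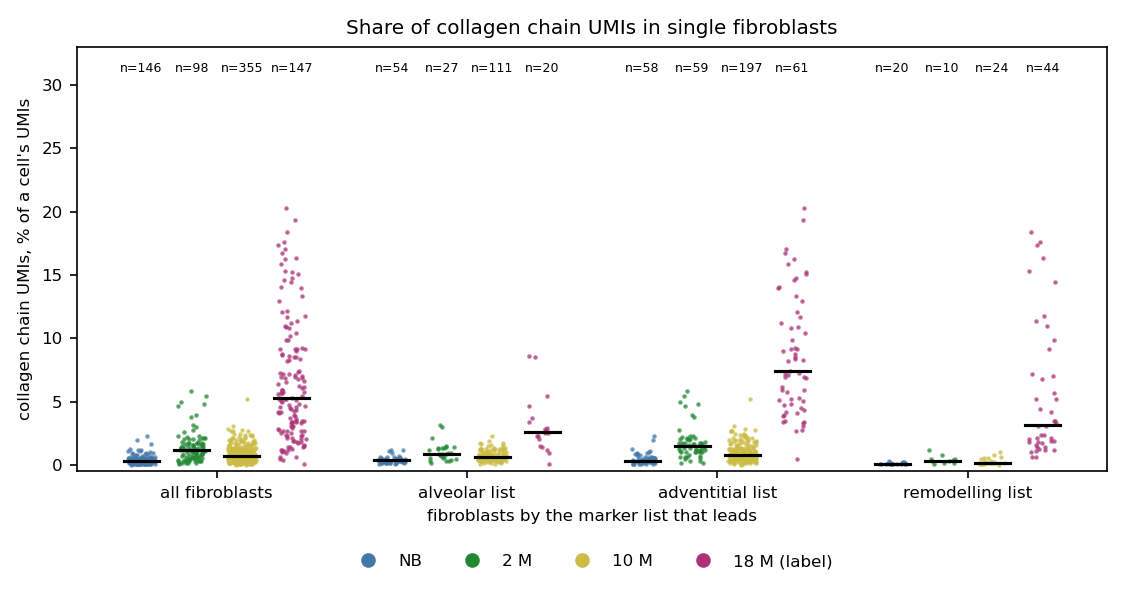
Collagen chain UMIs as a percent of all UMIs of each fibroblast, over all fibroblasts and by the marker list that leads, with 1 point per cell, a bar at the median and the number of cells above. Over all fibroblasts the medians are 0.316%, 1.20%, 0.703% and 5.31% in order of age, and the highest cell is at 20.3%.

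The marker lists of alveolar, adventitial and remodelling fibroblasts split the pFBs, with at least 2 markers of the leading list detected. Alveolar-list cells numbered 54, 27, 111 and 20, adventitial-list cells 58, 59, 197 and 61, and remodelling-list cells 20, 10, 24 and 44. Fibrillar chains were higher in 18 M than in 2 M within each list. They were at 29532 against 7125 CPM in alveolar-list cells (ratio 4.14, 3.95 to 4.35), at 91608 against 16539 CPM in adventitial-list cells (5.54, 5.41 to 5.67) and at 57602 against 3004 CPM in remodelling-list cells (19.2, 16 to 23.1). The last ratio rests on 10 cells of 2 M, and the remodelling list of 18 M held 749 of the 750 Col2a1 UMIs. In each library the alveolar-list level was below the adventitial-list level, at 0.668, 0.431, 0.647 and 0.322 times it.

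Col13a1 was found mostly in the alveolar list, where it was at 171.7, 191.2, 157.1 and 176.1 CPM, levels that do not differ beyond counting error from 2 M. In adventitial-list cells it was at 0, 2.01, 5.87 and 16.5 CPM. Alveolar-list cells were 54 of 146, 27 of 98, 111 of 355 and 20 of 147 pFBs. The part of this share in the lower Col13a1 over all 18 M pFBs was not tested. Col23a1 did differ within the alveolar list, at 143.3, 168.5, 259.8 and 75.5 CPM, an 18 M ratio of 0.448 (0.234 to 0.808). It was also lower within the adventitial list, at 0.421 (0.250 to 0.696). Col14a1 had the opposite preference, with alveolar over adventitial ratios of 0.265 to 0.345 in the 4 libraries. Col6a5 was found in adventitial-list cells for 66 of its 68 UMIs of 18 M, and Col7a1 was highest in alveolar-list cells, at 125.8 CPM in 18 M.

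Chains that join in 1 trimer did not keep 1 ratio. UMIs count captured 3′ ends, so a ratio of 2 chains is set only against the same ratio elsewhere. In pFBs, Col1a1 over Col1a2 was 0.400 (0.359 to 0.445), 0.731 (0.697 to 0.766), 0.674 (0.650 to 0.700) and 0.972 (0.956 to 0.988). No pair of these intervals overlaps except those of 2 M and 10 M, which share 0.697 to 0.700. Pericytes or smooth muscle cells, at 0.825, 0.516, 0.851 and 0.745, had intervals that all overlapped. Col3a1 over Col1a1 stayed within 0.926 to 1.15 in pFBs of all ages and was 0.683 (0.599 to 0.779) in 18 M pericytes or smooth muscle cells. Col5a1 over Col5a2 was 1.01 to 1.31 in pFBs and 0.0667 (0.0210 to 0.163) in 18 M endothelial cells, where Col5a2 had 75 UMIs and Col5a1 5.

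Several of these pairs are also neighbours on the chromosome. Col4a1 and Col4a2 are read away from each other and overlap by 22 bases at their starts. Their UMI ratio ranged from 1.32 to 3.12 over the 16 groups of 4 structural cell types and 4 libraries. In epithelium of 18 M it was 1.65 (1.54 to 1.76), below the 2.13 (1.89 to 2.40) of pFBs and the 2.31 (1.94 to 2.77) of endothelial cells in that library. Col4a5 and Col4a6, also read away from each other with starts 1308 bases apart, varied more, from 1 in 10 M pericytes or smooth muscle cells to 44.8 (18.9 to 139.3) in 18 M epithelial cells. In pFBs that ratio was 1.83, 4.08, 3.68 and 9.64. Col4a3 and Col4a4, with starts 71 bases apart, were at 0.214 to 0.632 in the groups with enough UMIs. Col6a1 and Col6a2 lie on 1 strand, and Col6a1 over Col6a2 was 0.812 to 1.28 in pFBs but 4.20 (2.07 to 9.39), 24.5 (6.43 to 208.0), 7.57 (4.32 to 14.3) and 4.44 (3.83 to 5.17) in epithelial cells. Col6a3 had 0, 1, 0 and 7 UMIs in those cells, beside 42, 49, 106 and 963 of Col6a1.

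**Figure D5:**
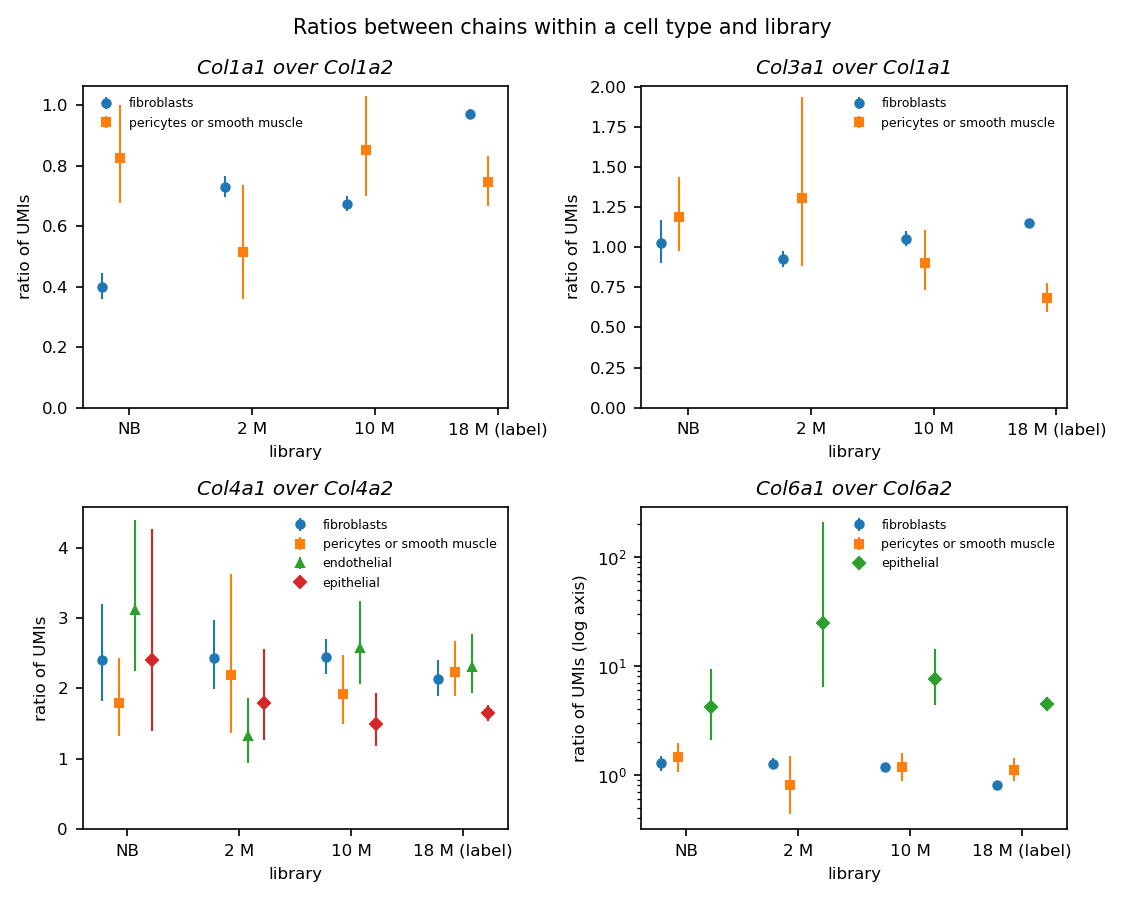
Ratio of UMIs between chains of the same collagen, and of Col3a1 to Col1a1, by library and cell type, with exact 95% intervals for counting error. The lower right panel has a log axis. Col1a1 over Col1a2 in fibroblasts runs from 0.400 in NB to 0.972 in the library labelled 18 M, and Col6a1 over Col6a2 is at 4.20 or more in every epithelial group.

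Pericytes and smooth muscle cells, which wrap capillaries and line larger vessels and airways, had fibrillar chains at 2191, 2789, 1909 and 5226 CPM, below pFBs except in NB, where the intervals overlapped. Their network chains, at 812.7, 1577, 1048 and 2139 CPM, were above those of pFBs. Against 2 M, 6 of 20 chains were at least 2-fold higher in 18 M (11.2% of all 6315 genes tested) and 2 were lower (14.1%). In NB 0 were higher (11.8%) and 3 lower (10.3%), and in 10 M 1 was higher (11.7%) and 3 lower (14.1%). The 2 M group had 9 cells, so these ratios have wide intervals. Col16a1 was the 1 chain called higher in 10 M, on 9 against 1 UMIs (2.08, 0.288 to 91.1). In 10 M as in 18 M it had enough UMIs only through the library compared. The cells' own 12 markers summed to 8976, 8942, 9957 and 4590 CPM (11, 11, 12 and 10 detected), and the 11 fibroblast markers in them to 809.7, 764.8, 456.3 and 1182 CPM (5, 5, 8 and 8 detected). The part of these shifts in the chain levels was not tested. Col1a1 was at 574.6, 576.5, 543.2 and 1462 CPM (18 M ratio 2.54, 1.89 to 3.47). Col27a1 was at 77.4, 47.1, 24.5 and 337.3 CPM and Col15a1 at 116.1, 117.7, 190.1 and 478.9 CPM (18 M ratios 7.17, 2.73 to 26.7, and 4.07, 2.16 to 8.63). Col18a1 was higher in these cells than in the other 3 structural types in every library, at 506.1, 411.8, 793.1 and 738.9 CPM. Its ratio to 2 M was 1.79 in 18 M, where in pFBs it was 0.434, and this difference between cell types was not tested. Col4a6 was lower than in 2 M in each other library, at 56.6, 92.4 and 79.8 CPM in NB, 10 M and 18 M against 223.6 CPM, on 19 UMIs in 2 M.

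Endothelial cells, which rest on their own basement membrane, carried mostly network chains. Col4a1 was at 518.7, 453.5, 809.5 and 1628 CPM and Col4a2 at 166.1, 342.9, 314.2 and 703.3 CPM, with 18 M ratios of 3.59 (2.83 to 4.61) and 2.05 (1.53 to 2.78). Of the 6 chains with enough UMIs, 6 were at least 2-fold higher in 18 M (15.8% of all 6295 genes tested) and 0 lower (9.37%). Col3a1, at 0, 4, 0 and 19 UMIs, was among them only through the library labelled 18 M. Col18a1, on 21 against 7 UMIs, had a ratio of 2.11 whose interval (0.863 to 5.87) includes 1. Col15a1 had 0 UMIs in the 34 cells of 2 M, so its ratios are bounds, and it was also the 1 chain called higher in NB and in 10 M. In NB 1 was higher (11.6%) and 4 lower (10.2%), and in 10 M 1 was higher (12.3%) and 2 lower (8.32%). Col5a2 was at 3.39, 99.5, 42.5 and 291.4 CPM, and Col1a1 had 0 UMIs in NB, 10 M and 18 M and 1 in 2 M. The 31 cells of the library labelled 18 M had Col4a1 UMIs in 26.

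Epithelial cells, which rest on the type IV membrane, carried Col4a1 at 73.7, 151.5, 115.0 and 412.0 CPM and Col4a2 at 30.7, 84.7, 76.4 and 249.9 CPM. Of 17 chains, 10 were at least 2-fold higher in 18 M (10.6% of all 11221 genes tested) and 0 lower (6.88%). Col1a1, Col1a2, Col3a1, Col16a1 and Col18a1 had the 20 UMIs only through 18 M, and over chains with 20 UMIs in the other 3 libraries 5 of 10 were higher (6.41% of 8528 genes) and 0 lower (6.33%). In NB 3 were higher (9.48%) and 5 lower (8.83%), and in 10 M 4 were higher (6.66%) and 0 lower (6.35%). The chains called higher in NB or 10 M had 1 or 2 UMIs each in 2 M. Of the 4 in 10 M, only Col23a1 (4.44, 1.08 to 39.0) had an interval above 1. Of the chains higher in 18 M, those with the narrowest intervals were Col4a1 (2.72, 2.21 to 3.38), Col4a2 (2.95, 2.24 to 3.97) and Col6a1 (2.19, 1.64 to 2.98). Col6a1 was at 64.5, 79.8, 73.0 and 174.9 CPM. The 11 fibroblast markers summed to 10.75, 24.4, 17.9 and 97.5 CPM in these cells (3, 3, 6 and 10 detected), beside 17.93 CPM in 18 M immune cells, and their part in the chain levels was not tested. Col4a5 was at 6.14, 13.0, 8.26 and 40.7 CPM. Col4a3 and Col4a4, which join Col4a5 in the alveolar basement membrane, were at 15.98 and 41.0 CPM in 18 M against 19.6 and 30.96 CPM in 2 M. Col12a1 was at 21.5, 44.0, 25.5 and 37.8 CPM. Fibrillar chains were at 6.14, 6.52, 4.82 and 58.1 CPM, and Col1a1 and Col3a1 of 18 M epithelium, at 13.8 and 18.2 CPM, lay near the 15.15 and 20.5 CPM of the same chains in the immune cells of that library. Col8a2, which had enough UMIs in no other structural type, had 7, 2, 11 and 12 UMIs.

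The level of type I collagen chains in immune cells is given as a background, in which free RNA, doublets and transcripts of the cells' own were not told apart. In immune cells Col1a1 was at 0.125%, 0.0328%, 0.0619% and 0.0721% of its pFB level. If all immune UMIs had the ratios of pFBs to Col1a1, 582.5 Col1a2 and 649.4 Col3a1 UMIs would have been counted in 18 M, and 595 and 766 were. Col3a1 over Col1a1 was thus 1.35 (1.21 to 1.51) in 18 M immune cells, beyond the 1.15 (1.13 to 1.17) of pFBs. In NB, 45.0 Col1a2 and 18.5 Col3a1 UMIs would have been counted, and 23 and 9 were. Col5a1 had 61 UMIs against 31.2 in 18 M, and Col6a1 79 against 35.5. Some chains stood further from those ratios. Col11a2 had 76, 77, 75 and 239 UMIs in immune cells, beside 3, 0, 12 and 92 in the far fewer pFBs. By CPM it was at 2.46, 2.88, 2.11 and 6.40 in immune cells and at 2.95, 0, 4.04 and 66.2 in pFBs. Its level was 1.80 to 7.23 CPM in cells with Cd3 and in cells with Cd79a alike. Col27a1 had 390 UMIs in the library labelled 18 M against 4.38 in the pFB ratio, 256 of them in cells with a Cd79a and no Cd3 UMI. Col5a3 likewise had 219 against 3.49, with 181 in the Cd79a group (16.6 CPM, against 0.511 CPM with Cd3 and 0.741 CPM in the Cd79a cells of 2 M). Col4a4 was at 1.54, 3.24, 3.13 and 1.10 CPM in the Cd79a group, against 0.166 to 0.555 CPM with Cd3. Col4a1 was highest in cells with Tyrobp alone, at 11.7 CPM in NB. These groups were set by single genes after the data were seen.

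Genes that fold, trim, cross-link or bind collagen were described as a list of 38, of which 33 passed in pFBs. Against 2 M, 9 were at least 2-fold higher and 1 lower in 18 M (9.23% and 9.40% of all genes). In NB 2 were higher and 5 lower (8.92% and 6.40%), and in 10 M 1 was higher and 2 lower (6.33% and 4.18%). The median log2 ratios were 0.56, -0.40 and -0.03. In 18 M the procollagen protease Bmp1 was at 214.5 against 73.0 CPM (2.94, 2.23 to 3.93), the cross-linking enzyme Lox at 657.8 against 259.2 CPM (2.54, 2.19 to 2.95) and Sparc, a collagen-binding matrix protein, at 14809 against 5488 CPM (2.70, 2.61 to 2.79). The prolyl hydroxylases P4ha2 (2.22, 1.44 to 3.53), P4ha3 (3.58, 1.59 to 9.45, on 41 against 7 UMIs) and P3h1 (2.28, 1.47 to 3.66) were also higher. P4ha1 (1.12, 0.826 to 1.53) and P3h3 (1.02, 0.812 to 1.28), of the same enzyme group, did not reach 2-fold. Serpinh1, the collagen chaperone, was at 1503 against 1140 CPM, and Pcolce2, an enhancer of procollagen cleavage, at 328.2 against 995.5 CPM. In NB, Sparc was at 0.224 (0.210 to 0.238) and Adamts2, which removes the procollagen end, at 0.297 (0.247 to 0.354) times 2 M.

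Over the 20 groups of 5 cell types and 4 libraries, the genes outside the family whose log2 CPM was most like that of the summed fibrillar chains were Mfap4 (Pearson r = 0.967), Ndrg4 (0.963), Twsg1 (0.948), Loxl1 (0.948) and Lox (0.947), among 13548 genes. These r values describe groups that share libraries, and Mfap4 is itself one of the markers that assign fibroblasts.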

How the data were processed

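The 10x 3′ kit v2 was used on whole-lung cells, with a single library for each of 4 ages. The deposited counts are UMIs by gene and barcode, which the authors obtained from Cell Ranger (3.0.2 in the submitters' processing notes, 3.1.0 in the matrix header) on mm10. Those notes list Seurat 2.0 as well. The deposited counts were not normalized or filtered on genes. Barcodes had at least 500 UMIs, 34037 in all.

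Cells were kept with more than 200 and fewer than 5000 genes, no more than 25000 UMIs (the study's limit, read as an upper one) and a mitochondrial share below 8%. A cell was given the type of which at least 3 markers had a UMI and whose share of detected markers was at least 2 times that of each other list. No doublet caller was run, and 175, 78, 200 and 674 barcodes stayed unassigned, in order of age. In 119, 50, 110 and 444 of them the leading list had fewer than 3 markers, and in the other 56, 28, 90 and 230 another list came too close. UMIs were summed per type and library and given as CPM with exact Poisson intervals and exact conditional binomial intervals of ratios. The ratio intervals were run on simulated Poisson counts, the model they assume. That run could not test the clumping of UMIs by cell. Fibroblasts had 1018053, 848799, 2972372 and 1389382 UMIs, so that 1 UMI was 0.982, 1.18, 0.336 and 0.720 CPM. Medians of log2 ratios had 0.5 UMIs added. Genes with at least 20 UMIs over the 4 libraries in the cell type were tested for the 2-fold call. Every chain with that number is given, and the 5 most similar genes were taken from those with at least 100 UMIs. Gene positions are from GENCODE M21 (GRCm38, the build of mm10). The members, lists and markers were chosen with earlier results of these data known. Alternatives were other limits on cells, other marker minimums, Leiden clusters made without the chains, thinning to 1000 UMIs, other totals, each cell weighed alike, subtraction of the immune level, other UMI minimums and folds, and parts of the 18 M fibroblasts. Tools were scanpy 1.11.5, leidenalg 0.10.2, scipy 1.17.1, numpy 2.4.6 and pandas 2.3.3 under Python 3.11.15.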

Additional observations from a re-analysis of the deposited data

Results flagged for a closer look

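Col18a1 moved in opposite directions in pFBs and in pericytes or smooth muscle cells. Against 2 M it was at 0.737 times in pFBs and 1.93 times in pericytes or smooth muscle cells of 10 M, and at 0.434 and 1.79 times in the library labelled 18 M. Col8a1 was 5.65-fold higher in pFBs labelled 18 M, on 37 UMIs in 5 cells, and at 0.0365 times 2 M in the pericytes or smooth muscle cells, on 1 UMI against 6. These differences between cell types were not tested, since each age has 1 library.

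Col10a1 had 100 UMIs in 1 barcode of the library labelled 18 M to which no cell type was assigned, and 0 UMIs in the 4 structural cell types. It stands out as a signal outside the cells compared.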

How the results depend on the processing

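No paired analysis was possible because each age has 1 library. Summed fibrillar CPM in pFBs ran NB, 10 M, 2 M, 18 M from low to high under all 12 alternatives that gave all 4 values, and the 18 M to 2 M ratio lay between 4.67 and 6.16. None of the median log2 ratios over the chains changed sign under the alternatives run. Single chains were not followed through every alternative. The allowed range was counting error for levels and 1.5 times for counts. For median log2 ratios it ran from the median lower to the median upper interval end of the single chains. That is not the counting error of the median itself. Over all results and alternatives, 195 values stayed within the allowed range and 49 moved. The cause of these moves was not tested. Among the alternatives, barcodes led by the fibroblast list and added from the unassigned ones, the removal of the Col2a1 barcodes, and a minimum of 20 UMIs outside the library compared, were chosen after the data were seen.

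Chains called higher in NB were 2 with no upper limits, and 1 with clusters, with thinning and with the added barcodes. In 10 M they were 0 with at least 100 UMIs, 2 at 1.5-fold and 3 with the added barcodes, and those called lower were 9 with no upper limits, 3 with clusters, 3 with at least 100 UMIs and 11 at 1.5-fold. In 18 M, 13 were called higher with 20 UMIs outside that library, 11 in Xist cells and 11 in the alveolar list, while those called lower were 1 with cells weighed alike, 1 in the alveolar list and 0 in the remodelling list. The 18 M median log2 ratio was 0.89 in Xist cells, 0.89 in the alveolar list and 2.39 in the remodelling list.

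Summed fibrillar CPM, in order of age, was 2034, 10205, 5337 and 47654 with clusters, 2568, 12902, 6507 and 75210 with thinning, 2952, 15251, 7611 and 93931 with totals without abundant genes, 2280, 10912, 5828 and 59154 with cells weighed alike, and 2250, 11722, 5760 and 60863 with the added barcodes. With no upper limits it was 13266 in 2 M and 66451 in 18 M, and with 2 markers 69482 in 18 M. Within 18 M it was 68502 in Y-linked cells, 78011 in Xist cells, and 29532, 91608 and 57602 in the alveolar, adventitial and remodelling lists. Network chains of 18 M endothelial cells were at 2657 CPM with no upper limits. The cluster that held most fibroblasts also took in mural cells, and 34 of the 147 gated pFBs labelled 18 M lay outside it in a cluster with immune markers, at a median of 715.5 UMIs.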

Other observations

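Barcodes left unassigned that were led by the fibroblast list numbered 22, 12, 76 and 78 in NB, 2 M, 10 M and the library labelled 18 M, at 2490, 5590, 5544 and 33468 CPM of collagen chains. They held 14281 of the 19389 chain UMIs of the unassigned barcodes of that library. The 5 barcodes of the library labelled 18 M assigned to mesothelium held 911 chain UMIs, 0.635% of its chain UMIs.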
